A study of Mus musculus with 4 samples.

Results

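The 9 genes described here encode proteins of the M-band, the titin and nebulette filaments, the thick filament, the Z-disc and the costamere of the cardiac sarcomere. They are Myom1, Myom2, Ttn, Myh6, Myh7, Nebl, Ldb3, Actn2 and Smpx, found by gene symbol among the 55359 genes of the deposited count table. They were proposed with the differences between these same libraries known, so their fold changes are given as a description, with intervals. Where an adjusted p threshold is named for a member, it describes the fit and is not read as support. RNA was sequenced from primary cardiac fibroblasts of the hearts of wild-type newborn mice (P1-P3). The OECtrl group (control overexpression, 2 libraries) was compared with the OENr4a3 group (overexpression of Nr4a3, a nuclear receptor gene, 2 libraries). The series asks how Nr4a3 overexpression inhibits the reprogramming of such fibroblasts into induced cardiomyocytes (iCM). The sample titles give day 10 and the series' design text gives day 7 of reprogramming. The sources used here do not give how the gene was delivered, what the control construct carries or which reprogramming factors either group received. No label says that the 2 libraries of a group came from separate cultures, so their spread may be technical.

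In the sarcomere, thick filaments are bundles of myosin whose heads pull on actin. At the M-band, in the middle of the sarcomere, myomesins crosslink the thick filaments, and titin, an elastic giant protein, spans from there to the Z-disc. At the Z-disc, alpha-actinin crosslinks the actin filaments, and nebulette and LIM-domain proteins such as Ldb3 bind to it. Fibroblasts do not build sarcomeres, but they hold contractile bundles made of non-muscle myosin and alpha-actinin isoforms, and in reprogramming studies sarcomere genes serve as markers of conversion.

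Between 14275501 and 18441428 reads were assigned to genes per library. At these totals the floor of 3 reads corresponded to 0.165 to 0.208 CPM, the level used here, which scales a gene's reads to the library's total. Nr4a3 itself had 36 and 31 reads in OECtrl, against 3184 and 3196 in OENr4a3, in the direction of the labels. All 10 cardiac fibroblast markers examined were measured, with a summed level of 21170 to 21600 CPM in OECtrl and 21520 to 21540 CPM in OENr4a3. In edgeR, at an adjusted p of 0.05, 3 of the 10 rose and 3 fell, against 12.0% and 11.0% of all genes tested. Col3a1, a fibrillar collagen, had 6875 CPM and 6821 CPM. Of 15 cardiomyocyte markers that are not members, 13 had under 100 reads in every library, and Pln, Mb, Sln and Hrc were at 0 in at least 1 library. Their summed level was 28.86 and 34.46 CPM in OECtrl and 35.42 and 33.94 CPM in OENr4a3. In bulk RNA, fewer cells of a type and less RNA per cell cannot be told apart, for these markers and for all members.

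Of the 9 members, 7 passed the filter on low counts, and Myh7 and Actn2 did not. Ttn, Myh6, Nebl and Smpx would not have passed it on their OECtrl reads alone, so the filter itself favoured higher values in OENr4a3 for them. In edgeR's quasi-likelihood fit over 15029 genes, 23.0% of all genes passed an adjusted p of 0.05, 12.0% of them higher in OENr4a3 and 11.0% lower, each as a share of the genes tested. Among the members 6 were past that threshold on the higher side and 0 on the lower side. Nothing is read from this count, since the members were chosen on this contrast. Levels of Myom1, Myom2, Ttn, Myh6, Actn2, Nebl and Smpx were higher in both OENr4a3 libraries than in either OECtrl library. Ldb3 had slightly lower CPM in both OENr4a3 libraries, and Myh7 had too few reads to place 1 of its OENr4a3 libraries above OECtrl.

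**Figure D1:**
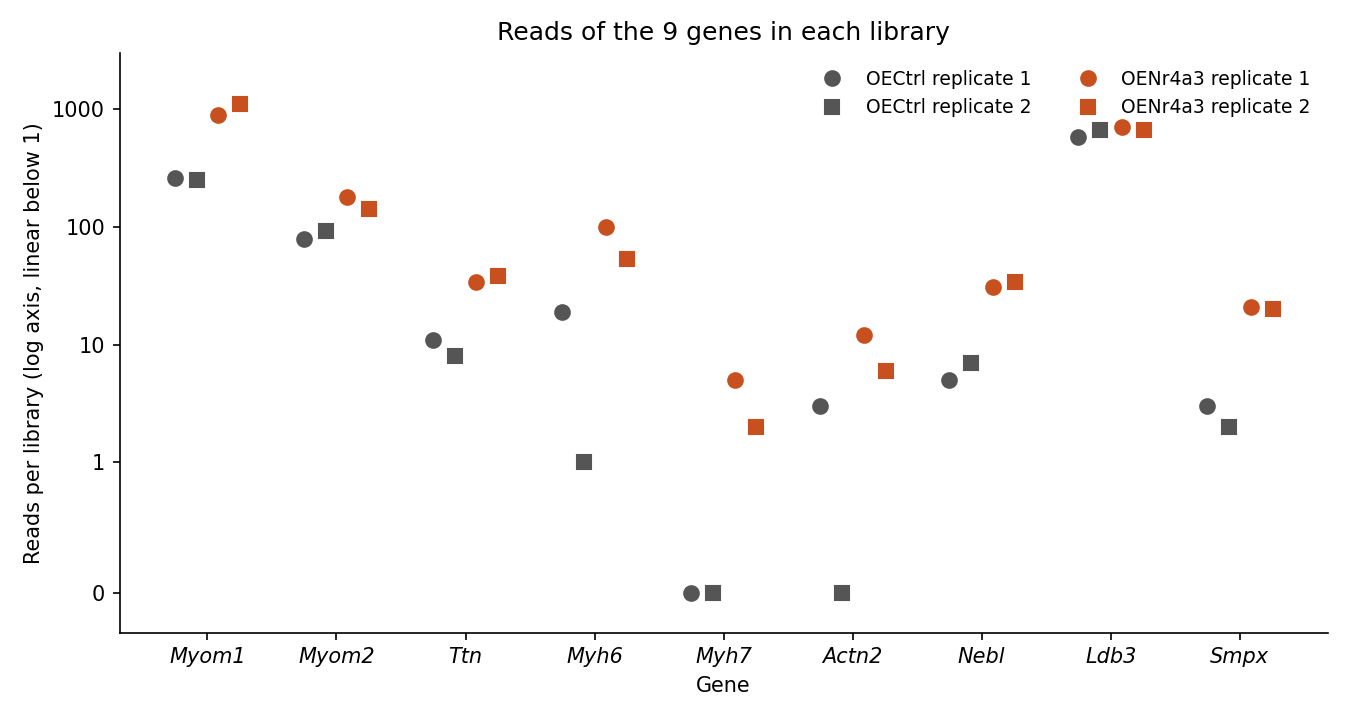
Reads assigned to each of the 9 genes (horizontal axis) in each of the 4 libraries (vertical axis, reads, log scale that is linear below 1). Myom1 and Ldb3 have 251 reads or more in every library, while Myh7 has 0, 0, 5 and 2 and Smpx 3, 2, 21 and 20.

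The M-band genes had the most reads of the members that stood higher in OENr4a3. Myom1, on chromosome 17 (GRCm38 chr17:71002633-71126856, plus strand), encodes myomesin 1, which links neighbouring thick filaments and binds titin. It had 259 and 251 reads in OECtrl, against 896 and 1112 in OENr4a3. Both OENr4a3 libraries stood far above both OECtrl libraries, and OENr4a3 replicate 2 was the highest. The level was 16.5 ± 2.06 CPM (SD, n = 2) in OECtrl and 55.6 ± 8.85 CPM (SD, n = 2) in OENr4a3. The log2 fold change was 1.76 ± 0.152 (SE), with a 95% interval of 1.42 to 2.10. Myom2 (chr8:15057653-15133541, plus strand) encodes M-protein, a relative of myomesin found in the M-bands of heart and fast skeletal muscle. Its reads were 79 and 92 in OECtrl and 178 and 141 in OENr4a3, which do not overlap. Its level was 5.49 ± 0.026 CPM and 8.83 ± 1.39 CPM (SD, n = 2 each), and its log2 fold change was 0.69 ± 0.190 (SE; 95% interval 0.26 to 1.11). Within each library, the per-length level of Myom1 was 2.78 and 2.31 times that of Myom2 in OECtrl and 4.26 and 6.68 times in OENr4a3. Myom2 was no longer past the threshold in DESeq2, without a filter on low counts, without OENr4a3 replicate 1 or with the length trend removed.

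The exons of Myom1 overlap those of Myl12a, a regulatory light chain gene on the opposite strand, over 207 bases (chr17:71002672-71002878). Myl12a had 386.0 and 504.0 CPM in OECtrl and 331.5 and 333.4 CPM in OENr4a3. It thus differed in the other direction from Myom1, with a log2 fold change of -0.42 and an adjusted p of 0.0406 in edgeR, a call lost without a filter on low counts and without either OENr4a3 replicate. The sources used here do not say whether counting used strand, so reads in those 207 bases cannot be assigned with certainty to either gene.

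Ttn (chr2:76703980-76982547, minus strand) encodes titin, the molecular spring that also sets where thick filament proteins bind. It had 11 and 8 reads in OECtrl, against 34 and 38 in OENr4a3. These are few reads for an exonic length of 117334 bases, the longest of the members. The level was 0.620 ± 0.200 CPM in OECtrl and 1.99 ± 0.171 CPM in OENr4a3 (SD, n = 2 each), a log2 fold change of 1.69 ± 0.420 (SE; 95% interval 0.75 to 2.64). Per kilobase of exon, Ttn had 0.00408 to 0.00649 CPM in OECtrl and 0.016 to 0.018 CPM in OENr4a3. With the length trend removed its log2 fold change was 0.66, no longer past the threshold, nor was it without OENr4a3 replicate 1 or without OENr4a3 replicate 2.

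The cardiac myosin heavy chains were scarce. Myh6 (chr14:54941921-54966927, minus strand), the fast alpha chain of atrium and adult mouse ventricle, had 19 and 1 reads in OECtrl, against 99 and 53 in OENr4a3. The OECtrl libraries were far apart, and both stood below the OENr4a3 libraries. Its level was 0.687 ± 0.887 CPM in OECtrl and 4.20 ± 1.77 CPM in OENr4a3 (SD, n = 2 each), and its log2 fold change was 2.68 ± 0.676 (SE; 95% interval 1.16 to 4.20). That value rests on which OECtrl library is used, since it was 5.98 without OECtrl replicate 1 and 1.67 without OECtrl replicate 2. The 5.98 rests on the 1 read of OECtrl replicate 2, which is under the floor of 3 reads. Myh6 was not past the threshold in DESeq2 or without a filter on low counts. Myh7 (chr14:54970684-54994626, minus strand), the slow beta chain of the embryonic ventricle, had 0 reads in both OECtrl libraries and 5 and 2 in OENr4a3. A count of 0 allows up to 0.208 and 0.179 CPM in the 2 OECtrl libraries, so Myh7 was not detectable there at this depth. OENr4a3 replicate 2, with 2 reads, is under the floor of 3 reads as well. With 0 reads in OECtrl, and below the filter on low counts, Myh7 is given no fold.

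Set against the heavy chains that fibroblasts use, Myh6 and Myh7 were a trace. Myh9, the main non-muscle heavy chain, had 1262 and 989.3 CPM in OECtrl and 1521 and 1538 CPM in OENr4a3. Myh6 and Myh7 together took 0.0835% (exact binomial 95% interval 0.0503% to 0.13%) and 0.00495% (0.000125% to 0.0276%) of the reads of 6 myosin heavy chain genes in OECtrl. In OENr4a3 they took 0.317% (0.259% to 0.384%) and 0.165% (0.125% to 0.215%). The genes lie side by side and are near copies, so part of their reads cannot be assigned with certainty. Of 5964 windows of 150 bases in the longest Myh6 transcript, 330 (5.53%) occur unchanged in a Myh7 transcript, and of 6064 windows of 50 bases 1373 (22.6%) do. The longest coding stretch that both genes share is 245 bases, over 2 exons of each gene (Myh6 chr14:54948612-54948725 and chr14:54948327-54948457, Myh7 chr14:54975234-54975347 and chr14:54974947-54975077, GRCm38, minus strand). It is shown because a read inside it fits both genes equally well, with no base in capitals since none differs.
Myh6 and Myh7, shared coding stretch: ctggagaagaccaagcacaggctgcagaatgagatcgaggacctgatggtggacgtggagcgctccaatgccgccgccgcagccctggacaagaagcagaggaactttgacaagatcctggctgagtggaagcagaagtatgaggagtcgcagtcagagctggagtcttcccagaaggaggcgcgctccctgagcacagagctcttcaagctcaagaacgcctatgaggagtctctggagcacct

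At the Z-disc, nebulette differed between the groups and Ldb3 hardly did. Nebl (chr2:17343909-17731464, minus strand) encodes nebulette, the short cardiac relative of nebulin that ties actin to alpha-actinin, and also a LIM-domain isoform found outside muscle. It had 5 and 7 reads in OECtrl, against 31 and 34 in OENr4a3, close within each group and far apart between groups. Its level was 0.382 ± 0.0515 CPM and 1.80 ± 0.130 CPM (SD, n = 2 each), a log2 fold change of 2.20 ± 0.449 (SE; 95% interval 1.19 to 3.21). Counts per gene do not separate its isoforms. Per kilobase, Nebl stood at 0.000486 and 0.000624 of the level of Lasp1, its ubiquitous relative, in OECtrl and at 0.00217 and 0.00254 in OENr4a3.

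Ldb3 (chr14:34526603-34588682, minus strand) encodes cypher, also called ZASP, a PDZ and LIM protein that binds alpha-actinin. It had 577 and 664 reads in OECtrl, against 701 and 665 in OENr4a3. Its level was 39.8 ± 0.145 CPM in OECtrl and 37.8 ± 1.14 CPM in OENr4a3 (SD, n = 2 each). The log2 fold change was -0.08 ± 0.110 (SE), and its 95% interval of -0.32 to 0.17 leaves room for a small difference either way. Actn2 (chr13:12269426-12340760, minus strand), the alpha-actinin of heart and skeletal muscle, had 3 and 0 reads in OECtrl, against 12 and 6 in OENr4a3. Over the summed reads the ratio was 5.18, with a counting interval of 1.51 to 27.4. Of all reads on Actn1, Actn2 and Actn4, Actn2 took 0.0143% (exact binomial 95% interval 0.00294% to 0.0417%) and 0 (up to 0.0181%) in OECtrl. In OENr4a3 it took 0.0406% (0.021% to 0.071%) and 0.0203% (0.00744% to 0.0441%), and these intervals overlap between the groups.

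Smpx (chrX:157698910-157752591, plus strand) encodes a small muscle protein of the costamere, the site where the Z-disc is tied to the cell membrane. It had 3 and 2 reads in OECtrl, against 21 and 20 in OENr4a3. Every OENr4a3 value was well above the OECtrl values, at a level near the floor. OECtrl replicate 2, with 2 reads, was under the floor of 3 reads. Its level was 0.164 ± 0.0622 CPM and 1.135 ± 0.0311 CPM (SD, n = 2 each), and its log2 fold change was 2.76 ± 0.599 (SE; 95% interval 1.42 to 4.11). With an exonic length of 2275 bases it is the shortest member.

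Compared per kilobase of exon, the members held a similar order in both groups. In OECtrl, Ldb3 was the highest (6.51 to 6.54 CPM per kilobase), followed by Myom1 (1.44 to 1.71) and Myom2 (0.618 to 0.622), each above the next in both libraries. Myh6 (0.00889 to 0.195), Smpx (0.0526 to 0.0913), Actn2 (0 to 0.0547) and Nebl (0.0227 to 0.0275) came next, and neighbours among them overlapped. Ttn lay below Nebl, and Myh7 was at 0. In OENr4a3, Ldb3 (6.06 to 6.32) still led Myom1 (4.72 to 5.92), and Myom2 followed at 0.886 to 1.11. Myh6 (0.438 to 0.811) and Smpx (0.489 to 0.508) overlapped, as did Actn2 (0.088 to 0.174) and Nebl (0.112 to 0.124), and Myh7 (0.0129 to 0.032) and Ttn at the bottom. Within each library Myom1 stood at 0.262 and 0.221 of the per-length level of Ldb3 in OECtrl and at 0.746 and 0.976 in OENr4a3.

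**Figure D2:**
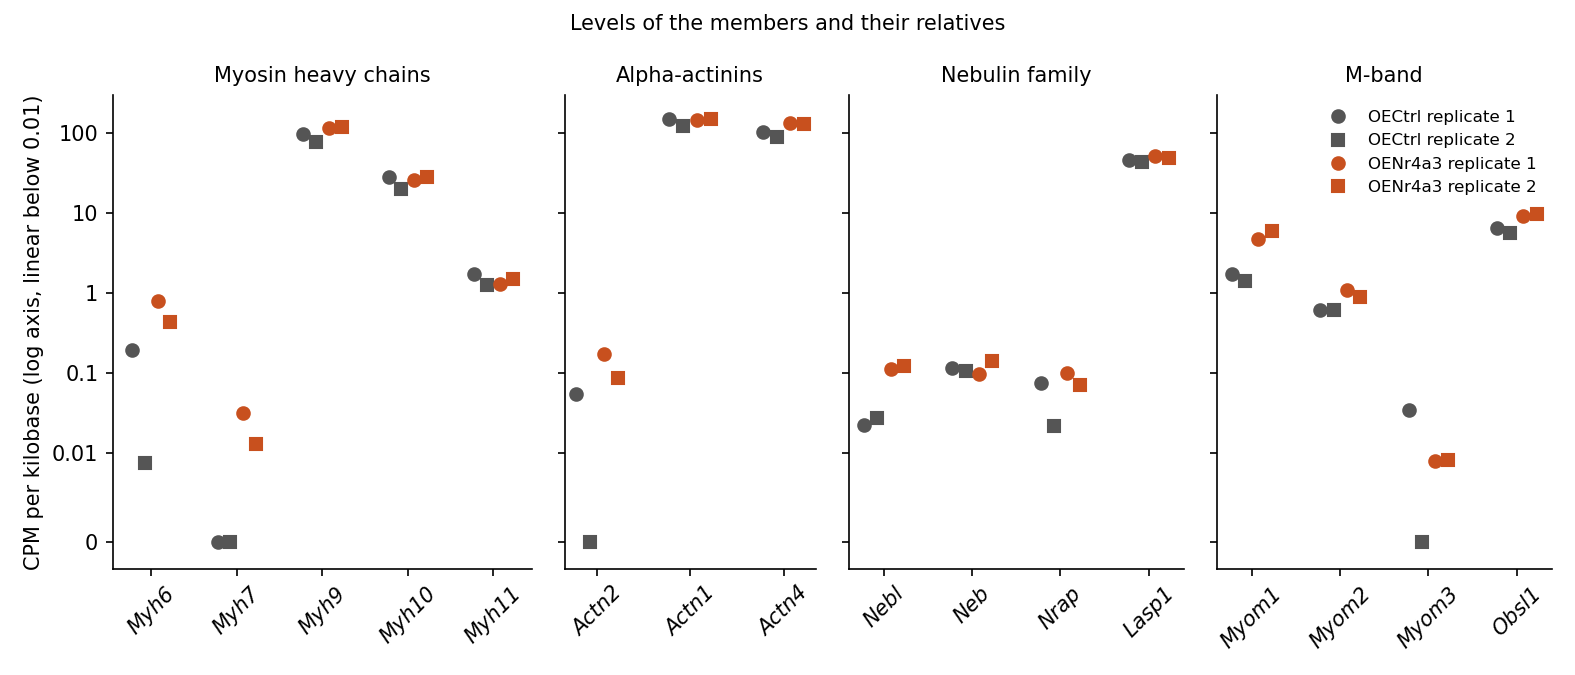
Level of members and related genes in each library (vertical axis, CPM per kilobase of exon, log scale that is linear below 0.01), in 4 panels by protein family. Myh6, Myh7, Actn2 and Nebl lie far below Myh9, Actn1, Actn4 and Lasp1 in every library, and Myom1 reaches 4.72 to 5.92 in OENr4a3.

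RefSeq promoter sequences (250 bases before to 50 bases after a start site, build GRCm38.p6) were present for 8 members, 13 promoters in all, and for Myom2 there was none in the table used. They were searched on both strands for 6 motifs. AAAGGTCA, the response element that NR4A receptors bind as monomers, was in 0 of the 13, and in 1.51% of 32851 promoters of that length. The CArG box of serum response factor was in 4 of the 13, for Myom1, Nebl and Ldb3, against 1.63% of all promoters. The 2 Ldb3 windows overlap and hold the same box. The MEF2 motif was in 1 of the 13, for Ttn (3.19% of all promoters). GATAA was in 4 of the 13, for Myom1, Nebl and Smpx (25.4% of all). CATTCC was in 4 of the 13, for Nebl, Ttn, Myh6 and Myh7 (14.7% of all), and CAGCTG in 0 (16.3% of all). No motif overlapped another in these windows, and a match is a run of letters, not a shown binding site. The promoters below are those with a CArG box or a MEF2 motif, 1 for each gene, and they include Ldb3, which hardly differed. Whether a motif bears on any difference was not tested. The Myom1 and Nebl windows are set on listed start sites inside the gene (chr17:71019557 and chr2:17462856). That of Nebl directly follows the bases attgcag, which read like the end of an intron. Whether transcription starts there was not tested, so its CArG box may not lie in a promoter. They run 5′ to 3′ along the gene, and capitals mark the motif matches.
Myom1 promoter (chr17:71019307-71019606, plus strand; GATAA at position -115, CArG box at -99): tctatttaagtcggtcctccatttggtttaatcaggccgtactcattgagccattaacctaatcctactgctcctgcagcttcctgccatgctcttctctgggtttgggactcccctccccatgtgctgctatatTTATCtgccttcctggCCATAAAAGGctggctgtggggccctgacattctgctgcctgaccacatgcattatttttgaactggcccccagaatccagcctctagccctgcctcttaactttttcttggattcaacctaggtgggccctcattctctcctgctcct
Nebl promoter (chr2:17462807-17463106, minus strand; CArG box at -162): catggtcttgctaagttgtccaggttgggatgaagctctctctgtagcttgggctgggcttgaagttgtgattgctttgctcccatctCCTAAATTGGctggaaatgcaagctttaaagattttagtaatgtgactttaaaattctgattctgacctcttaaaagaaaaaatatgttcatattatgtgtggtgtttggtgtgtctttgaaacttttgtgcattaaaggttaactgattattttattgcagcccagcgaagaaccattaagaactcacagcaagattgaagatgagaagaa
Ldb3 promoter (chr14:34588632-34588931, minus strand; CArG box at -35): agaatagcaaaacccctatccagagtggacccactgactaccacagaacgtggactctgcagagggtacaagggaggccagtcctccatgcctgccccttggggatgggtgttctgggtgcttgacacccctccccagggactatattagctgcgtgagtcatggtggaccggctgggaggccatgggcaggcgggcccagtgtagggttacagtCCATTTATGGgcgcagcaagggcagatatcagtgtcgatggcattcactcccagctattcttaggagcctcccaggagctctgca
Ttn promoter (chr2:76982498-76982797, minus strand; MEF2 at -166, CATTCC at 12): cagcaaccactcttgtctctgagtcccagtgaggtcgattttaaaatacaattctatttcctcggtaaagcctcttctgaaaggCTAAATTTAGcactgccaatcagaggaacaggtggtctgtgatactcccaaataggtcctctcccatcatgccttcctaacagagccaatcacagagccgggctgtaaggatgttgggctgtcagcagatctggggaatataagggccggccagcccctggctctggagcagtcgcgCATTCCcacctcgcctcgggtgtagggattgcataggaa

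Some partner genes of the same structures were higher and others lower in OENr4a3, as among all genes tested. In 5 lists with 73 genes, 40 were tested, and in edgeR 4 rose (against 12.0% of all genes tested) and 8 fell (against 11.0%). Their median log2 fold change was -0.11, beside -0.01 over all genes tested. Without OENr4a3 replicate 2 none of these 12 genes passed the threshold, and without OENr4a3 replicate 1 only Myl4 and Obsl1 did. Without a filter on low counts Fhl1, Fhl2, Pdlim3, Des, Actn3 and Pdlim2 were not past it either, nor was Fhl1 with upper-quartile scaling or Actn3 in DESeq2 and with the length trend removed.

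Among 16 thick filament partners 4 were tested, 0 rose and 1 fell, with a median log2 fold change of 0.01. Myl4, the atrial essential light chain, fell from 79.5 ± 17.7 CPM to 48.0 ± 3.65 CPM (SD, n = 2 each; log2 fold change -0.73, edgeR adjusted p = 0.012). Mybpc3, the cardiac myosin-binding protein C, had 44 and 21 reads in OECtrl, against 16 and 24 in OENr4a3, with no call (log2 fold change -0.93, adjusted p = 0.18). Myl2, the ventricular light chain, had 1 to 4 reads in each library, and Mybph and Myh4 had 0 in all.

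Among 15 M-band and titin ligands 7 were tested, 2 rose and 1 fell, with a median of 0.21. Obsl1, which encodes a cytoskeletal adaptor that binds titin and myomesin and is made outside muscle too, had 56.0 and 48.4 CPM in OECtrl and 77.7 and 82.8 CPM in OENr4a3. It rose by a log2 fold change of 0.62 (edgeR adjusted p = 0.00769), and by 0.41 with the length trend removed, where it stayed past the threshold. Fhl1, a LIM protein of muscle, rose (0.33, adjusted p = 0.0391). Fhl2, its relative, which binds titin and is abundant in fibroblasts, fell from 903.2 ± 82.8 CPM to 689.4 ± 25.9 CPM (SD, n = 2 each; -0.39, adjusted p = 0.0228), a call lost with the length trend removed.

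Of 22 Z-disc and costamere partners 11 were tested, 0 rose and 3 fell, with a median of -0.08. Des, the intermediate filament protein desmin, fell from 35.05 ± 4.75 CPM to 25.3 ± 0.962 CPM (SD, n = 2 each; log2 fold change -0.47, edgeR adjusted p = 0.0332). Pdlim3, an alpha-actinin-binding LIM protein, fell (-0.33, adjusted p = 0.0411), as did Actn3, the alpha-actinin of fast skeletal muscle, which had 34 and 36 reads in OECtrl, against 19 and 18 in OENr4a3 (-1.13, adjusted p = 0.0437). Bag3, a co-chaperone of the Z-disc, had 122.8 CPM and 113.6 CPM (-0.11, adjusted p = 0.495). Of 10 sarcomere assembly chaperones 9 were tested, 0 rose and 2 fell, with a median of -0.23. Hspb7, a small heat shock protein of heart, fell from 129.5 ± 1.99 CPM to 90.4 ± 1.03 CPM (SD, n = 2 each; -0.52, adjusted p = 0.00844). Cct2, a subunit of the chaperonin that folds actin, fell as well (-0.46, adjusted p = 0.0122), while Hsp90ab1 had 1528 CPM and 1301 CPM (-0.23, adjusted p = 0.0742).

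Among 10 genes listed as non-muscle relatives of the members 9 were tested, 2 rose and 1 fell, with a median of 0.14. The list includes Myh11, the smooth muscle heavy chain, which is also among the smooth muscle markers. Actn4, a non-muscle alpha-actinin, rose from 586.7 ± 63.6 CPM to 808.1 ± 6.35 CPM (SD, n = 2 each; log2 fold change 0.46, edgeR adjusted p = 0.0139). Myh9 rose (0.44, adjusted p = 0.0266), a call lost with the length trend removed. Pdlim2 fell (-0.42, adjusted p = 0.0203). Actn1, the other non-muscle alpha-actinin, had 752.2 CPM and 827.7 CPM (0.14, adjusted p = 0.371).

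**Figure D3:**
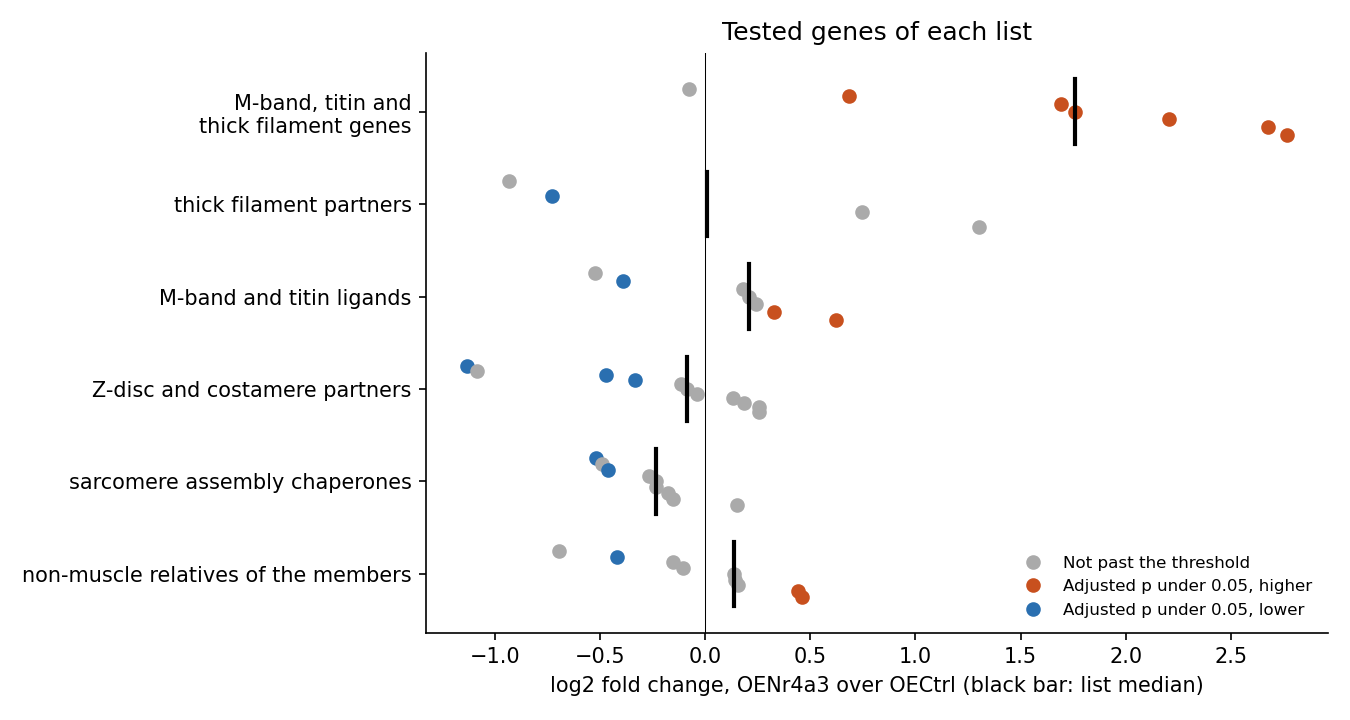
Log2 fold change of OENr4a3 over OECtrl (horizontal axis) for each tested member and each tested gene of the 5 partner lists, with the list median as a black bar and colour for an edgeR adjusted p under 0.05. The members' median is 1.76, fixed by how they were chosen, and the partner medians lie between -0.23 and 0.21.

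Counts of markers of other cells are read against the 12.0% of all genes tested that were higher and the 11.0% that were lower in edgeR. Among the cardiomyocyte markers 7 were tested, 2 rose and 0 fell. These were Slc2a4, the insulin-responsive glucose transporter (15 and 22 reads in OECtrl, 53 and 67 in OENr4a3, a log2 fold change of 1.48, edgeR adjusted p = 0.0137), and Cacna1c, the L-type calcium channel (59 and 39 reads, then 140 and 151, 1.34, adjusted p = 0.00909). Tnni3, the cardiac troponin I, had 5 or 6 reads in each library. Fabp3, the marker with the highest per-length level, had 17.5 CPM and 14.1 CPM (-0.32, adjusted p = 0.147). Of 12 skeletal muscle markers 3 were tested, 0 rose and 1 fell, the summed level was 5.259 and 5.384 CPM in OECtrl and 3.195 and 3.338 CPM in OENr4a3, and Myod1, Myog, Myf5 and Myf6 were at 0 in all libraries. Mylpf, a fast skeletal light chain, had 5 to 19 reads per library. Of 8 smooth muscle markers 7 were tested, 0 rose and 3 fell, among them Acta2 (2159 CPM to 1581 CPM, adjusted p = 0.00769). Of 7 macrophage markers all were tested, 0 rose and 3 fell, with Lyz2 at 810.7 CPM and 522.4 CPM (adjusted p = 0.00212). Of 7 endothelial markers 6 were tested, 0 rose and 1 fell, and Cdh5 had 12.4 CPM in both groups. Without OENr4a3 replicate 2 Slc2a4, Acta2 and Lyz2 were not past the threshold, nor was Acta2 without OENr4a3 replicate 1. The part of any of these cells in the members' differences was not tested.

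Gene length moved with the difference between the groups. When the tested genes were split by exonic length into 10 bins of equal size, the median log2 fold change went from -0.42 in the bin of the shortest genes (57 to 1278 bases) to 0.35 in that of the longest (9607 to 123179 bases). In the bin of the longest genes, which holds Myom1, Ttn and Nebl, 40.0% of genes were higher and 2.46% lower by the edgeR threshold, and in that of the shortest 2.06% and 24.6%. The bin of Myom2 had 23.0% of its genes higher, that of Myh6 and Ldb3 15.1%, and that of Smpx 4.79%. The members' median exonic length was 8853 bases, against 4126 over all genes tested. With the trend over length removed, the log2 fold change was 1.47 for Myom1, 0.45 for Myom2, 0.66 for Ttn, 2.54 for Myh6, 1.79 for Nebl, 2.96 for Smpx and -0.19 for Ldb3. The tested chaperones, smooth muscle markers and macrophage markers were shorter, with medians of 2769, 2736 and 2589 bases. With the trend removed, Hspb7 went from -0.52 to -0.38, Cct2 from -0.46 to -0.29 and Acta2 from -0.45 to -0.24. Lyz2 went from -0.63 to -0.33 and Cacna1c from 1.34 to 0.82, while Slc2a4 went from 1.48 to 1.56. Hspb7, Cct2, Acta2, Lyz2, Cacna1c and Slc2a4 all stayed past the threshold. Among the members Myom2 and Ttn did not, and Ldb3 was not past it in either fit. What sets the length trend was not tested.

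**Figure D4:**
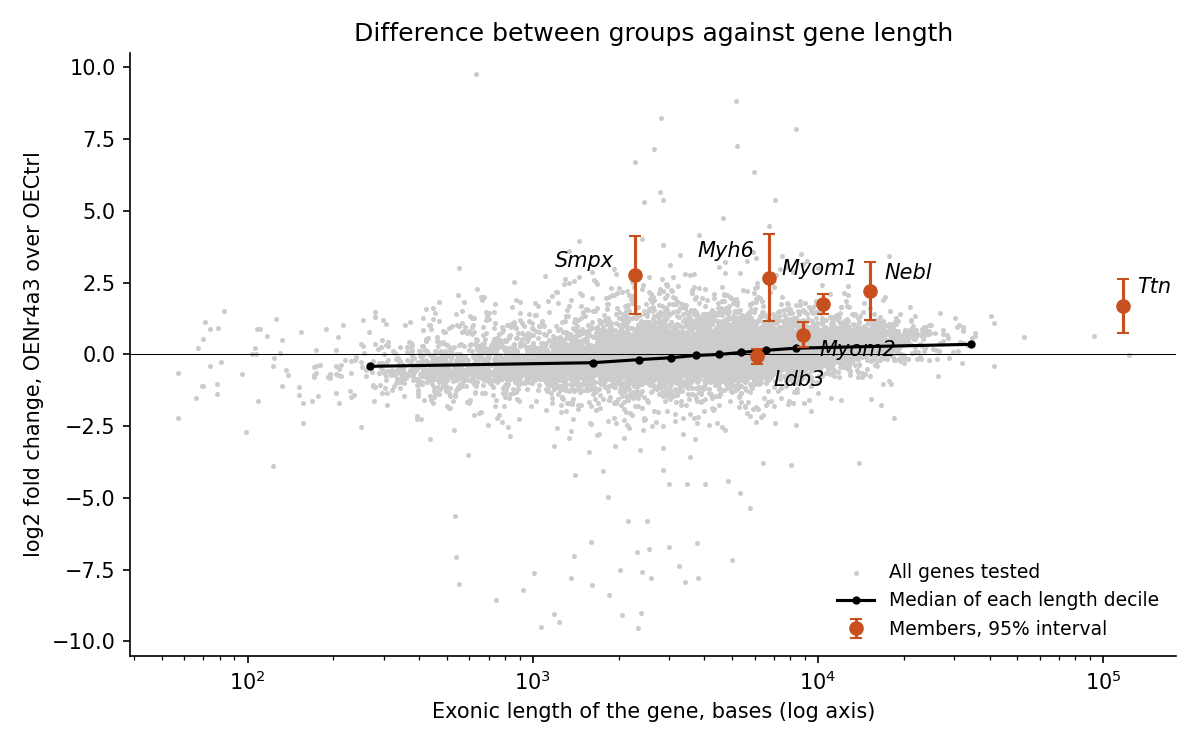
Log2 fold change of OENr4a3 over OECtrl (vertical axis) against exonic length (horizontal axis, bases, log scale) for all 15029 genes tested in grey, with the median of each of 10 length bins as a black line and the 7 tested members with 95% intervals. The line climbs from -0.42 to 0.35, and the intervals of Myom1, Myom2, Myh6, Nebl and Smpx lie above it. Ttn is the second longest gene plotted and lies beyond the end of the line, so its interval cannot be compared with it. With the length trend removed, the log2 fold change of Ttn was 0.66 and not past the threshold.

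**Figure D5:**
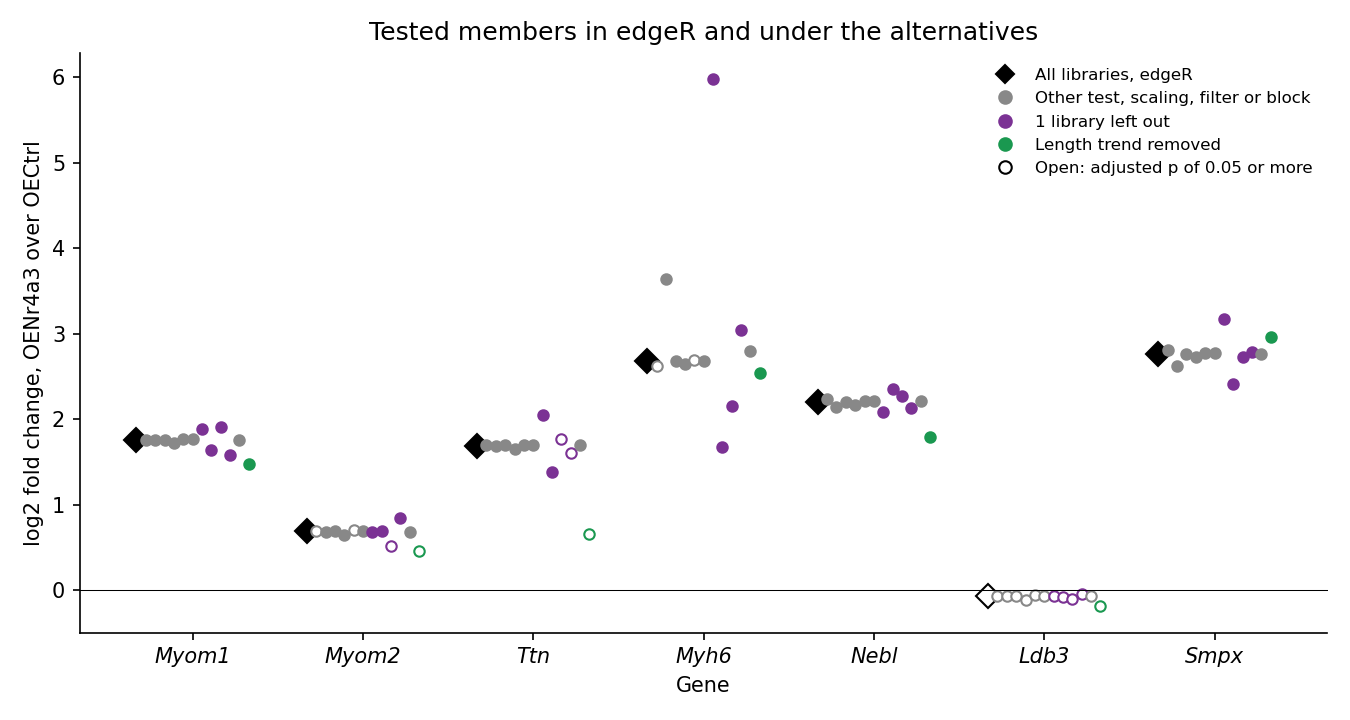
Log2 fold change (vertical axis) of the 7 tested members (horizontal axis) in edgeR with all libraries and under 12 alternatives, with open symbols where the adjusted p was 0.05 or more. Myom1, Nebl and Smpx are filled throughout, Myh6 spans 1.67 to 5.98, and Ldb3 stays between -0.19 and -0.04.

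The genes whose profile over the 4 libraries was most like that of Myom1 were Capn6, Pde5a, Negr1, Pde4d and Crispld2, among 10443 genes with a mean of at least 5 CPM. The root mean square difference of their centred log2 CPM from that of Myom1 was 0.067, 0.0962, 0.0994, 0.112 and 0.12. Pde5a, a phosphodiesterase that breaks down cyclic GMP, had 33.9 and 29.5 CPM in OECtrl and 106.3 and 111.0 CPM in OENr4a3. Pde4d, which breaks down cyclic AMP, had 9.55 and 7.36 CPM and then 25.9 and 27.1 CPM. With 4 libraries in 2 groups, this likeness is a description of these libraries.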

How the data were processed

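Per the labels' protocols, TRIzol-extracted RNA was freed of ribosomal RNA and made into stranded paired-end libraries; the labels also call the molecule polyA RNA. The authors deposited whole-number counts per Ensembl gene for 4 libraries, per the file headers. The submitters' processing notes name the build mm10, featureCounts, SAMtools, Trimmomatic 0.36 and Subread 1.5.1. The strand setting, the aligner and the release of the annotation are not given there or elsewhere in the sources used here. The 4 per-sample FPKM columns were not used. The table's coordinates equalled those of GENCODE M21 (GRCm38) for 1494 of 52083 shared identifiers, so coordinates come from GENCODE M21, matched by identifier. Exonic lengths are the deposited ones.

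Samples were grouped by title. The main test was that of edgeR 4.0.16, run in R 4.3.3 (filterByExpr, TMM factors 1.014, 1.017, 0.9857 and 0.9842, glmQLFit and glmQLFTest, two-sided, all 4 libraries, no replicate block), and p-values were adjusted by Benjamini-Hochberg over 15029 genes, with 0.05 as the threshold. Standard errors and 95% intervals come from that fit. CPM use TMM-scaled totals, and SDs cover 2 libraries. Ratios of scarce genes and shares of reads have exact (Clopper-Pearson) intervals. These exact intervals and the floors cover counting error only. The 12 alternatives were DESeq2 1.42.0, limma-voom (limma 3.58.1), 2 other scalings, 2 other filters, each library left out, a replicate block and removal of the trend over length (lowess with span 0.3, prior count 2, on the log2 scale). The fit was tested on simulated counts.

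The members and lists were chosen with earlier results of these data known. Named genes are the members, Nr4a3, in each partner list the 2 tested genes with the smallest p and the one with the highest CPM per kilobase, in each marker list the one with the highest, and the 5 genes most like Myom1. Other genes were named after their values were seen.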

Additional observations from a re-analysis of the deposited data

How the results depend on the processing

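All 6 members past the threshold kept a log2 fold change above 0 in the 12 alternatives, and Myom1, Nebl and Smpx passed the threshold in each. Members higher numbered 4 in DESeq2, without a filter, without OENr4a3 replicate 1 and with the length trend removed, 5 without OENr4a3 replicate 2, and 6 otherwise. The count over all genes was 3457, and 1878 without a filter, where 27419 genes were tested. With 1 library left out it ranged from 1229 (without OENr4a3 replicate 2) to 7773 (without OECtrl replicate 1), partners higher ranged from 0 to 13 and partners lower from 0 to 14; partners lower numbered 3 without a filter. A library left alone in its group is assumed to vary like the other group. All alternatives reuse libraries of the contrast on which the members were chosen. For the members they describe dependence on the processing and give no further support. With a replicate block 3851 genes, 6 members and 3 partners higher and 7 lower passed the threshold, with Fhl1 and Pdlim3 no longer among them. The labels share only replicate numbers: the differences between replicates 1 and 2 correlated at r = -0.0776 across 15029 genes between groups. No strong shift common to same-numbered libraries was thus seen. Whether they came from the same preparation is not stated and cannot be told from this value. Depth limits Myh7, Actn2, Smpx, Nebl and Ttn, with at most 38 reads in a library.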

Other observations

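Other muscle genes, picked out after their values were seen, were scarce too. Neb, the nebulin gene, with an exonic length of 26675 bases, had 45 and 47 reads in OECtrl, against 48 and 69 in OENr4a3, with overlapping groups (log2 fold change 0.13, edgeR adjusted p = 0.762). Ryr2, the calcium release channel of the cardiac sarcoplasmic reticulum (28790 bases), had 5 and 3 reads and then 8 and 10. Nppa, the atrial natriuretic peptide gene, had 37 and 63 reads in OECtrl, against 90 and 25 in OENr4a3, so each group spread more than the groups differed (log2 fold change 0.00, adjusted p = 0.997). Myl7, the atrial regulatory light chain, had 17 and 11 reads and then 34 and 21 (0.74, adjusted p = 0.258), with CPM that overlap between the groups.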
